A study of Mus musculus with 38 samples.

Results

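The collagen genes examined here were 43 mouse genes named Col, taken by name from the 21938 protein-coding genes of GENCODE M21. They were split by the structures that their products build into 11 fibrillar, 9 basement membrane and 23 other collagens. Col17a1, a collagen of the hemidesmosome, was not on the list and served as an epidermal marker. For every gene, a window was laid over the gene body with 20 kb on either side (mm10), and the H3K27ac peaks and H3K4me1 domains that overlapped the window by at least 1 bp were counted and their covered bases summed.

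The study asked how the transcription factor SOX9 reprogrammes epidermal stem cells (EpdSCs) of adult skin, and profiled histone marks by MINT-ChIP, a barcoded ChIP-seq for small samples. Skin came from male mice of the genotype K14rtTA; TRE-myc-Sox9, in which the Krt14 promoter drives the rtTA activator in the skin epithelium, and doxycycline (DOX), given from postnatal day 21, switches on the MYC-tagged SOX9 transgene. Cells of the back skin that were high for CD49f and Ly6A and negative for CD34, CD31, CD45, CD117 and CD140a were collected before DOX (D0) and 1, 2, 6 and 12 weeks after it began (W1, W2, W6 and W12). The W12 cells came from newborn skin of that genotype grafted onto Nude female hosts, so W12 differed from D0 in graft as well as in time. In culture, keratinocytes from back skin carried a TRE-myc-Sox9 transgene for wild-type SOX9 (WT), for SOX9 without the HMG box that binds DNA (ΔHMG) or for SOX9 without its transactivation domain (ΔTA), and were profiled with DOX, beside WT cells without DOX. All groups, the references included, carried the transgene.

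Collagens are trimers of chains that wind into a triple helix and assemble outside the cell. Fibrillar collagens make the tensile fibres of dermis, bone and cartilage and in skin come mainly from fibroblasts. Epidermal keratinocytes contribute to the basement membrane on which they sit, with its type IV network, the type VII anchoring fibrils that tie it to the dermis and the proteoglycan-like types XV and XVIII. H3K4me1 marks enhancers, active or not, and H3K27ac marks active enhancers and promoters.

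The deposited data held 1 list per mark and group, made from merged replicates: 5 H3K27ac peak lists and 5 H3K4me1 domain lists from skin and 4 H3K4me1 lists from culture. With 1 list per group there is no spread between replicates and no test, and every difference given here compares those lists. A gene was called higher or lower when its covered bases differed from the reference by at least 1.5-fold and by at least 500 bp (H3K27ac) or 2000 bp (H3K4me1). The share of all covered protein-coding genes called in the same way stands beside each first count as the background. The H3K27ac lists held 29081 to 33985 peaks and covered 23.1 to 32.1 Mb, and the H3K4me1 lists of skin held 69439 to 87287 domains. Read totals were not used here, but the fold values of the H3K27ac peaks fell mostly on steps of whole reads. A fit to these steps placed the background lowest at W1, at 0.299 reads, and highest at W6, at 0.676. If the background follows depth, W1 was the shallowest and W6 the deepest list, which was not checked against read totals. W12 peaks were the narrowest, with a median of 476 bp against 635 bp at D0. A smaller share of marked cells and less mark per cell cannot be told apart in these lists.

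The sort was checked by H3K27ac peaks within 1 kb of a marker's start site. Of 7 epidermal markers, 7 had one at D0, W1, W2 and W6 and 6 at W12. Of 8 fibroblast markers, 1 (Fbln1, at W6) had one in any list, and Pdgfra, which encodes the CD140a of the gate, Lum and Dcn had none. The summed H3K27ac of the fibroblast marker windows was 3107, 5228, 8829, 13656 and 2477 bp from D0 to W12, of which Fbln1 held 1762, 2669, 7818, 13366 and 1061 bp, and that of the epidermal markers was 70120 to 108285 bp. None of 3 immune markers had one. Endothelial markers had 0 of 3 at D0 and W2 and 1 of 3 at W1, W6 and W12, and melanocyte markers 1 or 2 of 4 in every list. Their part in the collagen values was not tested.

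Few collagen start sites carried H3K27ac. Peaks lay within 1 kb of an own start site for 6, 13, 5, 6 and 3 of 43 collagens from D0 to W12. Over all protein-coding genes the shares were 44.5%, 43.1%, 44.1%, 48.4% and 36.2%. A peak anywhere in the window was found for 25, 28, 25, 21 and 34 of 43 collagens, against 64.1%, 64.1%, 63.5%, 65.4% and 66.2% of all genes. Of the 14 collagens with a start-site peak in any list, 8 belonged to the basement membrane, 5 to the other collagens and 1 to the fibrillar collagens. H3K4me1 was more widespread at the same sites, with 33, 31, 34, 31 and 27 of 43 collagens from D0 to W12, against 68.9%, 64.3%, 65.2%, 68% and 64.7% of all genes. A domain anywhere in the window was found for 41, 39, 41, 39 and 39 collagens, against 82.1%, 79.6%, 80.3%, 81.6% and 80.6%.

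**Figure D1:**
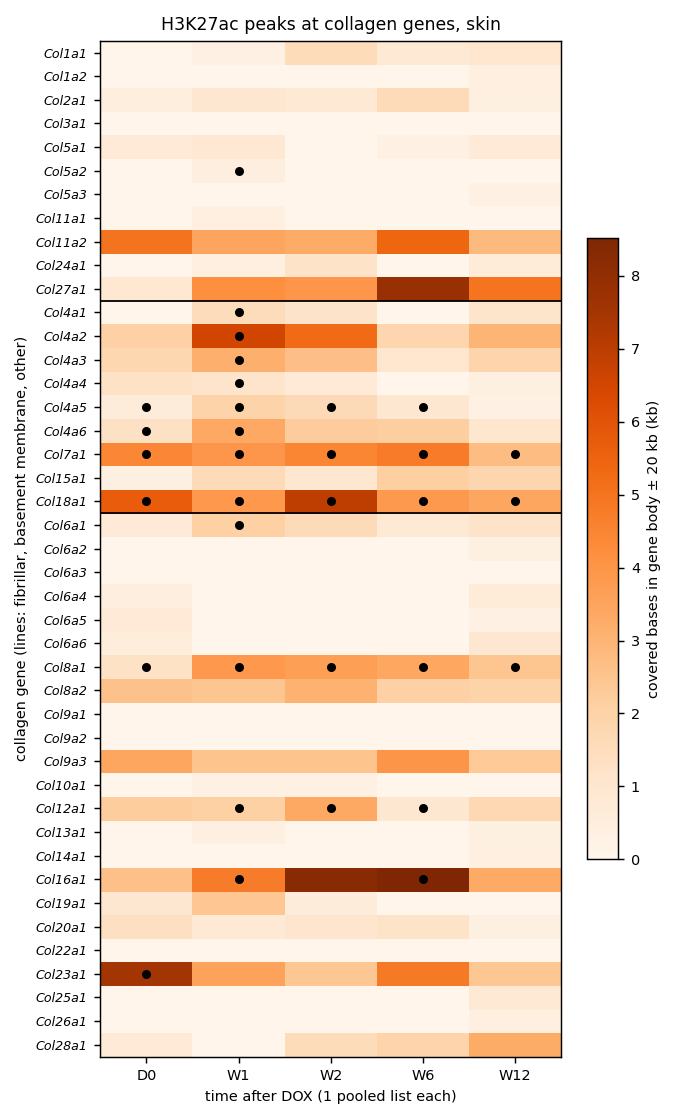
Covered bases of H3K27ac peaks (kb, colour) in the gene body with 20 kb flanks of each of the 43 collagen genes (rows, in 3 classes) in the 5 skin lists (columns). Black dots mark a peak within 1 kb of an own start site, which Col7a1, Col8a1 and Col18a1 had in all 5 lists.

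Col7a1, Col8a1 and Col18a1 kept a start-site peak in all 5 skin lists. Col7a1 (chr9:108953586-108984875, plus strand) encodes the anchoring fibril chain, and its window held 4404, 3956, 4470, 4766 and 2737 bp of H3K27ac from D0 to W12. The first 4 lists lay close together and W12 was the lowest and was called lower. Peaks within 1 kb of the neighbours Uqcrc1, Ucn2 and Pfkfb4 made up part of that sum, and without them Col7a1 had 3316, 3181, 2988, 3026 and 1801 bp. Col8a1 (chr16:57624258-57754737, minus strand), a short-chain network collagen, had 1250, 3860, 3661, 3408 and 2466 bp. All 4 lists with DOX were above D0 and were called higher. At its start site the peak was 424 bp wide with a fold enrichment of 5.33 at D0 and 1967 bp wide with a fold of 12.3 at W1. Col18a1 (chr10:77052178-77166548, minus strand), whose product carries endostatin, had 5706, 3866, 6943, 3847 and 3449 bp, highest at W2 and lowest at W12.

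The promoters of a collagen with H3K27ac at its start in every list and of one with it only at D0 are shown here, as the 250 bases before the start site in RefSeq (GRCm38.p6), 5′ to 3′ on the gene's own strand. The motifs searched on both strands were ACAAAG with its variant form ACAATG for SOX, then TGANTCA for AP1 factors, TGTGGT for RUNX factors and AGATAA for GATA factors, and capitals mark a match. Col8a1 lies at chr16:57754738-57754987 on the minus strand and holds 1 RUNX match. Col23a1 lies at chr11:51289670-51289919 on the plus strand and holds no match. The same stretch of Col7a1, which also had a start-site peak in every list, holds no match, so Col7a1 and Col8a1 do not share the match. That of Col18a1 holds none either, but the start behind it had a peak at D0, W2 and W12 only. The Col18a1 peak found in every list lay at another of its start sites, whose promoter was not searched.
Col8a1: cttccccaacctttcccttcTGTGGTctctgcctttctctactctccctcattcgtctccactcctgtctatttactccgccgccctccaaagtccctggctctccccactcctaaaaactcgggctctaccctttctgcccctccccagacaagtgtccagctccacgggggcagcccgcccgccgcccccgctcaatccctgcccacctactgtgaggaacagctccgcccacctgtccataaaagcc
Col23a1: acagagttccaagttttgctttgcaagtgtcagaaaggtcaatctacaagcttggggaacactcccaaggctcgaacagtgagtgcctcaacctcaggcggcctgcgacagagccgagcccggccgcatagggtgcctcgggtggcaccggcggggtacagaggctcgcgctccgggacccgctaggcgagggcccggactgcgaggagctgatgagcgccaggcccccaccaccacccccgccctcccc
Both were rich in G and C, at 60.8% and 66.0%. Promoters were matched for 34 of the 43 collagens, and the table had none for Col1a1, Col2a1, Col4a3, Col5a2, Col9a3, Col12a1, Col14a1, Col22a1 and Col26a1. Over the whole of each matched promoter, which runs on 50 bases past the start, 4 of 34 collagens (11.8%) held a SOX match, against 28.6% of the 32851 promoters in the table, and 1 of 34 (2.94%) held each of the AP1, RUNX and GATA motifs, against 7.81%, 16.8% and 11.2%.

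The type IV genes stand in 3 head-to-head pairs, and only W1 had start-site peaks at all 3, for 2 of them through 1 shared peak each. A single W1 peak, with a fold of 4.62, lay at the shared start of Col4a1 and Col4a2, the pair that makes the common basement membrane network. Another, with a fold of 3.08, lay at that of Col4a3 and Col4a4. With a −log10 q of 1.37, the latter peak was near the limit of the W1 list, whose largest q was 0.0498. Neither site had a peak in any other list. Col4a5 had a start-site peak from D0 to W6, with a highest fold of 10.1 at W6, and Col4a6 had one at D0 and W1, the D0 peak being shared with Col4a5. Counted over whole windows, Col4a2 (chr8:11312805-11449287) held 2033, 6523, 5247, 1829 and 2985 bp from D0 to W12. W1 and W2 stood apart from the other 3 lists. Col4a1 (chr8:11198423-11312826) held 0, 1520, 1185, 0 and 1114 bp, and its bases at W2 all lie in an intron of Col4a2 that the 2 windows share, while its own gene body held 0, 829, 0, 0 and 367 bp. An intron of Col4a2, at 59803 bp from its start at W2, carried a peak in every list, as 1 peak of 2699 bp with a fold of 12.6 at W2 and as 2 peaks of 360 and 1351 bp with folds of 3.33 and 6.66 at D0. Col4a6 held 1281, 3349, 2236, 2184 and 1003 bp and Col4a5 601, 1940, 1627, 941 and 319 bp, so both were highest at W1 and lowest at W12. Col4a3 held 1788, 3160, 2649, 1017 and 1919 bp, called higher at W1 and lower at W6, and Col4a4 held 1241, 1138, 755, 0 and 339 bp, called lower at W6 and W12. Col15a1 held 333, 1590, 948, 2160 and 1814 bp, and all 4 lists with DOX were called higher.

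Against D0, 12 of 32 covered collagens were called higher in H3K27ac at W1 and 5 lower, with a background of 16.8% higher and 17.5% lower. At W2 the counts were 13 higher and 5 lower of 29, with a background of 21.7% and 15%. At W6 they were 8 and 8 of 26, with 26.5% and 11.3%, and at W12 8 and 7 of 35, with 13.2% and 37.0%. The basement membrane genes were 6 of the 12 higher at W1 and 5 of the 13 at W2, where the Col4a1 call rests on the Col4a2 intron, and no basement membrane gene was called lower at these times. At W6, 2 of 8 covered basement membrane genes were higher and 2 lower, and at W12 2 of 9 were higher and 3 lower. Col4a6 was called higher at W2 and W6 through peaks that lay at the start of Col4a5 alone. Without those peaks, Col4a6 held 1706 bp at W2 and 1243 bp at W6, against 1281 bp at D0, short of a call. The median covered share of a collagen window was 0.303%, 0.638%, 0.641%, 0% and 0.468% from D0 to W12, below the 1.29%, 1.22%, 1.37%, 1.58% and 0.916% of all genes. Collagen windows were longer, with a median of 154404 bp against 57425 bp. The limits of a call in bp were the same for all windows, so the backgrounds of the calls are not matched for length either.

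**Figure D2:**
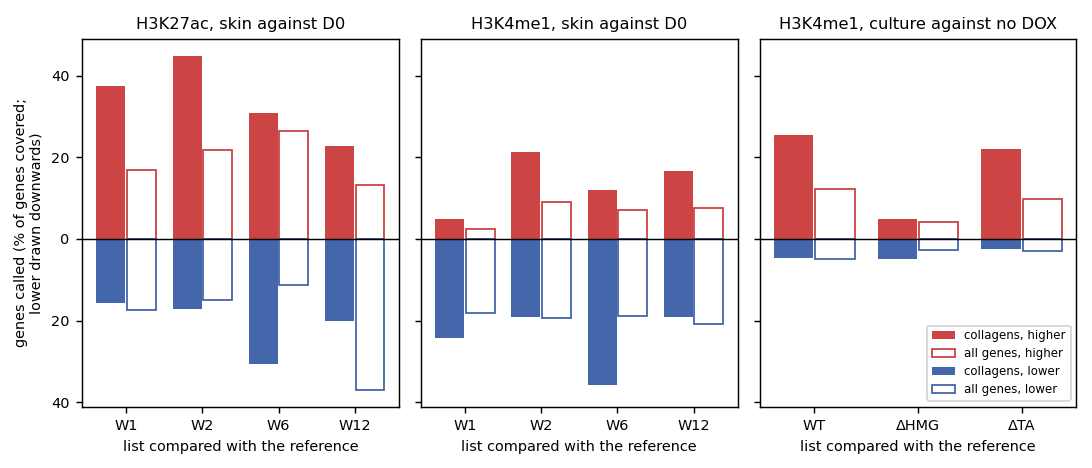
Share of covered genes called higher (upwards) and lower (downwards) in each list against its reference, in percent, for the collagens (filled bars) and for all protein-coding genes (open bars). Higher H3K27ac calls of collagens exceeded those of all genes at all 4 times, and lower calls of both marks exceeded them at W6. Each bar rests on 1 pooled list and its reference, and all genes were not matched to the longer collagen windows.

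Part of the H3K27ac in collagen windows lay at the starts of neighbouring genes. Of the 59, 77, 64, 69 and 85 peaks in the windows from D0 to W12, 18, 19, 19, 21 and 18 lay within 1 kb of the start of another protein-coding gene. Without these peaks, the collagen windows kept 58.3%, 66.8%, 65.2%, 53.2% and 72.2% of their covered bases, against 72.1%, 73.9%, 73.3%, 69.8% and 77.9% over the windows of all protein-coding genes. The fibrillar windows kept the smallest share of the 3 classes in every list, 0.79, 2.77, 2.77, 5.3 and 5.92 kb of the 7.19, 11.1, 10.8, 15.8 and 11.3 kb that they held from D0 to W12. The basement membrane windows kept 75.1% to 87.1% of their bases. Col11a2, a minor fibrillar chain, held 5023, 3471, 3249, 5393 and 2827 bp in its full window and 0, 0, 0, 270 and 0 bp away from its neighbours, so its lower calls at W2 and W12 were calls on the neighbours' start sites. Col20a1 kept no base in any list, and Col9a3, with 3458, 2516, 2510, 3984 and 2325 bp in full, kept 0, 641, 0, 818 and 349 bp. Counted in this way, a choice made after the data were seen, the calls were 11 higher and 4 lower of 28 covered collagens at W1 (all genes 20% and 18.3%), 12 and 4 of 24 at W2 (24% and 17.1%), 7 and 10 of 24 at W6 (26.1% and 14.4%) and 9 and 5 of 33 at W12 (17% and 31.8%).

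The fibrillar collagens of the dermis had little or no H3K27ac. Col3a1 had no covered base in any skin list, and Col1a2 had none before a single peak of 382 bp at W12, in an intron and outside every H3K4me1 domain. Col1a1 (chr11:94936224-94953042) held 0, 312, 1549, 807 and 999 bp, in peaks centred 19324 to 21922 bp from its start and past its end, and no peak within 1 kb of its start in any list. It was called higher at W2, W6 and W12. The only start-site peak of a fibrillar collagen was at Col5a2 at W1, 437 bp wide with a fold of 3.85. Col5a1 held 790, 898, 0, 275 and 791 bp, and no covered base at W2. Col27a1 (chr4:63214004-63334991), a fibrillar collagen known from cartilage, differed from the rest of its class, with 905, 4186, 3929, 7787 and 4959 bp and a higher call in all 4 comparisons. Without the peaks at the starts of its neighbours Orm1 and Orm3, Col27a1 kept 0, 315, 0, 3953 and 2427 bp, so its own intronic and exonic peaks were limited to W1, W6 and W12, and its higher calls at W1 and W2 were lost.

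Among the other collagens, Col16a1 had the largest gain in H3K27ac covered bases from D0 to W2 of all 43, 5638 bp. Col16a1 (chr4:130047840-130099283, plus strand) is a fibril-associated collagen that also occurs near the dermal-epidermal junction. Its window held 2599, 4726, 8237, 8518 and 3295 bp. W2 and W6 stood above the other lists, and D0 was the lowest. Without the peaks at the start of its neighbour Pef1, it held 706, 2466, 6038, 5514 and 2272 bp. Peaks within 1 kb of the start site were found at W1 and W6 only, and the W6 peak alone overlapped the start itself. Of the W2 peaks in collagen windows that D0 lacked, the strongest and one of the 2 tied for the next place by score lay in Col16a1, across exons and introns near its start. The strongest (chr4:130054446-130057110, centred 7938 bp past the start) had a fold of 9.82, was found at W1, W2, W6 and W12, lay outside the H3K4me1 domains of D0 and inside those of the other 4 times, and was matched in culture with WT and ΔTA SOX9 but not without DOX or with ΔHMG. The second (chr4:130049947-130051867) had a fold of 9.12 and lay in an H3K4me1 domain at every time and in all 4 culture lists.

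**Figure D3:**
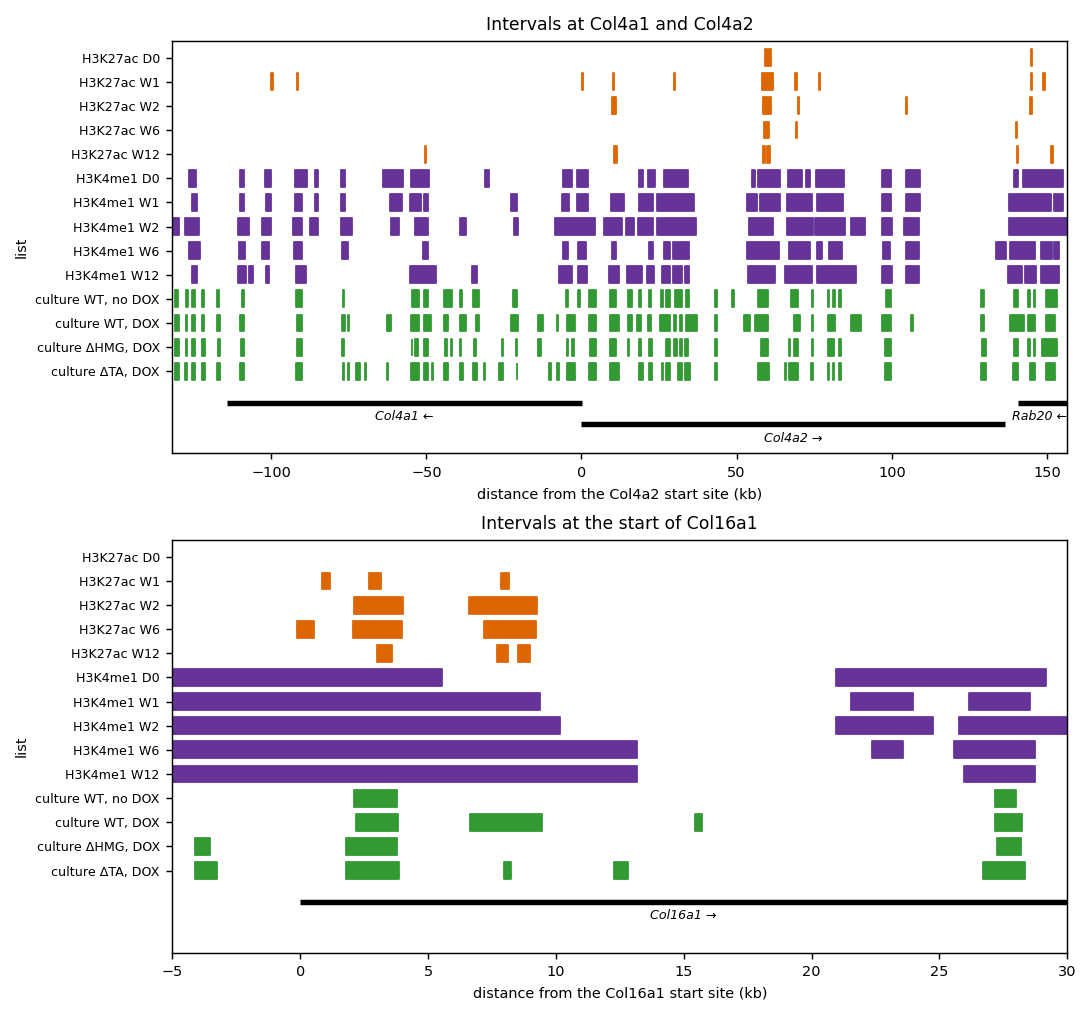
Intervals of the 14 lists (rows) at Col4a1 and Col4a2 (top) and at the start of Col16a1 (bottom) by distance from the start site in kb, with H3K27ac peaks in orange, H3K4me1 domains of skin in purple and H3K4me1 of culture in green. The Col16a1 peak 7938 bp past the start is missing at D0, and its H3K4me1 is missing at D0, without DOX and with ΔHMG.

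The 3 other strongest peaks that D0 lacked at W2 lay in Col4a2, Col4a3 and past the end of Col1a1. The Col4a2 peak (chr8:11382498-11383047, intronic, fold 9.12), tied by score with the second Col16a1 peak, was found at W2 alone. The Col4a3 peak (chr1:82710774-82712361, fold 8.42) was found at W1 and W2, in H3K4me1 domains of every time and, in culture, with WT alone. The Col1a1 peak (chr11:94957489-94958539, fold 7.72) was found at W2 and W6. Of the D0 peaks that W2 lacked, the strongest lay in introns of Col18a1 (chr10:77089620-77090242, fold 11.3), Col23a1 (chr11:51526505-51527765 and chr11:51436303-51437204, both with a fold of 6.66) and Col4a6 (chrX:141436008-141436687, fold 6.66) and at exons of Col4a3 (chr1:82673699-82674323, fold 7.33) and Col6a6 (chr9:105702141-105702735), the last tied by score with the Col23a1 and Col4a6 peaks. The Col18a1 site carried a peak again at W12, the Col4a6 site was still covered at W1, and no later peak overlapped the Col23a1, Col4a3 and Col6a6 sites. A W12 peak (chr9:105701824-105702125) lay directly beside the Col6a6 site without overlapping it.

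The 200 bases around the summits of 4 of these peaks are printed below on the plus strand of mm10, the first 3 as the strongest W2 peaks absent from D0 and the last as a D0 peak absent from all later lists, with the motif matches in capitals. They lie at chr4:130055738-130055937 (SOX match), chr4:130050551-130050750 (AP1 match), chr8:11382768-11382967 (SOX match) and chr11:51526732-51526931 (GATA match). The Col18a1 and Col4a3 peaks of D0 that W2 lacked scored higher than the Col23a1 peak printed. The same 200 bases hold no match at the Col18a1 summit and 1 SOX match at that of Col4a3.
Col16a1, first: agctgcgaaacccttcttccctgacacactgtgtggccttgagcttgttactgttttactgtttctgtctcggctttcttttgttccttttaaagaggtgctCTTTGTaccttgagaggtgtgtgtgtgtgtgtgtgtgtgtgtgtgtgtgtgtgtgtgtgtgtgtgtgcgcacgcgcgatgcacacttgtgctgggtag
Col16a1, second: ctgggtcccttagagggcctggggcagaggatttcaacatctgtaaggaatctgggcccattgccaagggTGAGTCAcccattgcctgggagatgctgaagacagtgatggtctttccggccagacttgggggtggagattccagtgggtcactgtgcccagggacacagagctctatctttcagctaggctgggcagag
Col4a2: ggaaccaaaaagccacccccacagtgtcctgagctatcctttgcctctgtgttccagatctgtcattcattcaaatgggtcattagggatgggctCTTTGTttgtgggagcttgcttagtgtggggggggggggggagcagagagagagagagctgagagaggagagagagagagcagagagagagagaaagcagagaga
Col23a1: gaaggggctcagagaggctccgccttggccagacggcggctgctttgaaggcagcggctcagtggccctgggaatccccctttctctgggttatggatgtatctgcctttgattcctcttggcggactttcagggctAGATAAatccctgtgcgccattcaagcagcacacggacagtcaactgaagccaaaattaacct
A SOX match was found around 9 of 27 summits (33.3%) of the collagen peaks at W2 that D0 lacked, against 27% of the 11647 peaks of the whole list that D0 lacked. An AP1 match was found around 4 of the 27 (14.8%, against 6.59%), a GATA match around 5 (18.5%, against 10.4%) and a RUNX match around 2 (7.41%, against 14.1%). Of the 23 D0 collagen peaks that W2 lacked, 4 had a SOX match (17.4%, against 22.6% of the 11673 such peaks of the list). These shares rest on 1 to 9 collagen peaks each, and a match of these letters is no evidence of binding.

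By peaks, 27 of the 64 collagen peaks at W2 had no overlap with D0, or 42.2% (exact 95% binomial interval 29.9 to 55.2%, which covers counting error only), near the 40.1% of the whole W2 list. At W1 the share was 40 of 77 (51.9%, interval 40.3 to 63.5%, against 41.3%), at W6 38 of 69 (55.1%, 42.6 to 67.1%, against 39.8%) and at W12 56 of 85 (65.9%, 54.8 to 75.8%, against 56.2%). Basement membrane windows had 18 of 30 such peaks at W1 and 14 of 29 at W2. In the other direction, 23 of 59 D0 peaks were absent at W1 (39.0%, against 37.4%), 23 at W2 (39.0%, against 38.6%), 28 at W6 (47.5%, against 37.8%) and 31 at W12 (52.5%, against 53.7%). The collagen peaks of W12 were weak, with a median fold of 4.96, the same as for the whole list, and 66 of 85 lay in an H3K4me1 domain of that time, against 61 of 64 at W2. Over all peaks these shares were 73.9% at W12 and 96.3% at W2. At W12, 6 collagens had covered bases that no earlier list had, Col1a2, Col5a3, Col6a2, Col14a1, Col25a1 and Col26a1, with 325 to 832 bp each. The matching share of all protein-coding genes was not computed, so this count cannot be read as particular to collagens.

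Col12a1, a fibril-associated collagen, had start-site peaks at W1, W2 and W6, and its window held 2228, 2069, 3363, 952 and 1722 bp. It was called higher at W2 and lower at W6. Col6a1, a chain of the microfibrillar type VI, had a start-site peak at W1 alone and held 747, 2095, 1584, 819 and 1189 bp, largely at a site before its start that had a peak in every list. Col6a5 and Col6a6, other type VI chains, held 794 and 595 bp at D0, none at W1, W2 and W6 and 321 and 972 bp at W12. Col28a1 held 780, 0, 1531, 1915 and 3240 bp, and a site centred 20206 bp from its start at W2 carried a peak at W2, W6 and W12, outside the H3K4me1 domains of D0 alone. Col19a1 held 997, 2441, 614, 0 and 0 bp. Col3a1, Col6a3, Col9a1, Col9a2 and Col22a1 had no H3K27ac in their windows in any skin list.

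The median share of a basement membrane window covered by H3K4me1 was 20.9%, 20.5%, 32.7%, 11.9% and 22.5% from D0 to W12, against 18.3%, 14.7%, 15.9%, 15.4% and 15.4% for all genes. The medians were 8.94%, 12.2%, 9%, 14.4% and 11.5% for the fibrillar and 8.54%, 6.30%, 9.29%, 6.64% and 10.3% for the other collagens. Basement membrane genes thus lay above the median of all genes in 4 lists and below it at W6, while both other classes lay below it in all 5. The W6 value holds for the median only. By share of all bases in their windows, basement membrane genes lay above all genes at W6 (17.5% against 14.8%).

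**Figure D4:**
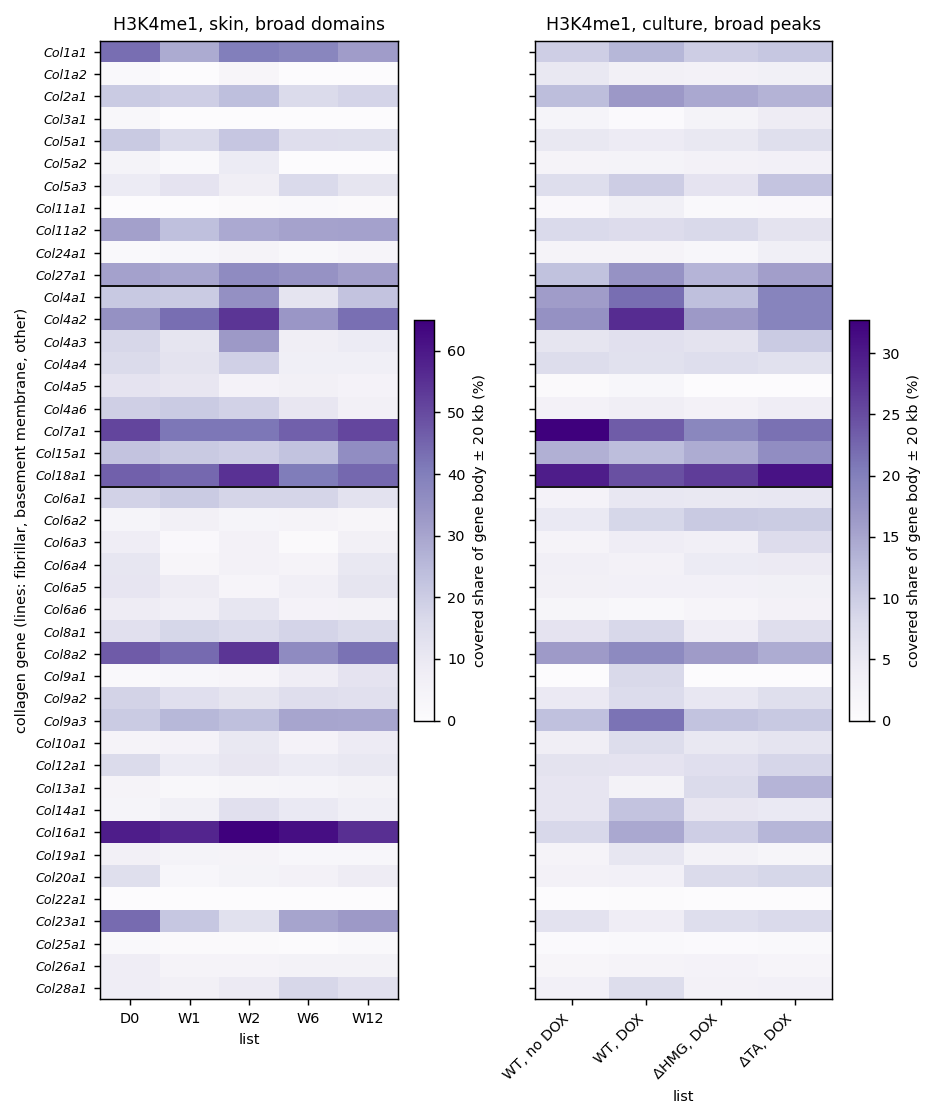
Share of each collagen window covered by H3K4me1 domains in the 5 skin lists (left) and by H3K4me1 peaks in the 4 culture lists (right), in percent, on separate colour scales because the intervals were called differently. In skin, Col16a1, Col4a2, Col18a1, Col8a2 and Col7a1 stand out at W2, and Col23a1 is at 43.8% at D0 and 13.3% at W2.

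Against D0, 2 of 41 covered collagens were called higher in H3K4me1 at W1 and 10 lower, with a background of 2.5% higher and 18.1% lower. At W2 the counts were 9 higher and 8 lower of 42, with a background of 9.07% and 19.3%. At W6 they were 5 and 15 of 42, with 7% and 18.9%, and at W12 7 and 8 of 42, with 7.57% and 20.8%. The higher calls at W2 included Col4a1, Col4a2 and Col4a3. Col4a2 had 61600, 76600, 95287, 59000 and 75800 bp of H3K4me1 from D0 to W12, and W2 was the highest list. Col4a1 had 32200, 31626, 54226, 18400 and 34800 bp and Col4a3 29600, 20200, 57200, 13000 and 15600 bp, so that both were highest at W2 and lowest at W6. The X-linked pair differed. Col4a6 had 66876, 71400, 64600, 37800 and 21600 bp and Col4a5 30400, 27600, 12800, 15800 and 12800 bp, and Col4a5 was already called lower at W2. Col4a4 had 28227, 22027, 33827, 12578 and 12578 bp. At W6, 5 of 9 basement membrane genes were called lower, all of them type IV genes, and at W12 4 of 9. Col7a1 had 36275, 29675, 29675, 32675 and 36075 bp and Col18a1 70800, 68400, 84423, 62623 and 68400 bp, and neither was called in any comparison. Col15a1 had 32600, 30200, 28200, 32800 and 52000 bp and was called higher at W12.

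Outside the basement membrane, Col14a1 (chr15:55307750-55520803), a fibril-associated collagen, had 10000, 16600, 34200, 25000 and 17400 bp of H3K4me1. All 4 lists with DOX were called higher, the only collagen of which this held. Col14a1 had no H3K27ac before a peak of 432 bp at W12. Col9a1, a fibril-associated collagen of cartilage, had 2000, 3200, 4200, 9200 and 13800 bp and was called higher from W2 on, without any H3K27ac peak. Col28a1 had 18200, 14800, 21817, 39600 and 31800 bp and was called higher at W6 and W12. Of the type VI genes, Col6a4 was called lower at W1, W2 and W6 and Col6a5 at W2 and W6, with Col6a4 at 16347, 4547, 8147, 6347 and 15147 bp and Col6a5 at 16443, 12200, 5400, 9600 and 16643 bp. Col12a1 had 24800, 14400, 17400, 14400 and 16600 bp. Of the dermal fibrillar genes, Col1a1 had 24619, 16200, 22777, 21619 and 18177 bp and was called lower at W1, Col1a2 had 1200 bp at D0, 2400 bp at W2 and none at the other times, and Col3a1 had 1600 bp at D0 and none later. Col22a1 had no H3K4me1 in any skin list.

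Of the 43 collagens, Col23a1 covered fewer bases at W2 than at D0 by the widest margin in both marks. Col23a1 (chr11:51289920-51583918, plus strand) encodes a transmembrane collagen and spans 293999 bp. Its window held 36, 21, 15, 26 and 26 H3K4me1 domains from D0 to W12, which covered 146399, 71399, 44399, 100518 and 108718 bp. W2 was the lowest list and D0 the highest, and W6 and W12 lay between them. The calls were lower at W1 and W2 and neither at W6 and W12. The stretch from 150 to 250 kb past the start held 68319, 28400, 19000, 45400 and 44000 bp. H3K27ac covered 7512, 3576, 2398, 4838 and 2408 bp, called lower in all 4 comparisons. Without the peaks near the start of the neighbour Phykpl, Col23a1 held 5235, 1890, 694, 2625 and 1705 bp. Its only start-site peak, 337 bp wide with a fold of 4, was found at D0. Of its intronic D0 peaks, the one centred 204525 bp past the start was found again, at W1 and W6, and no other was.

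**Figure D5:**
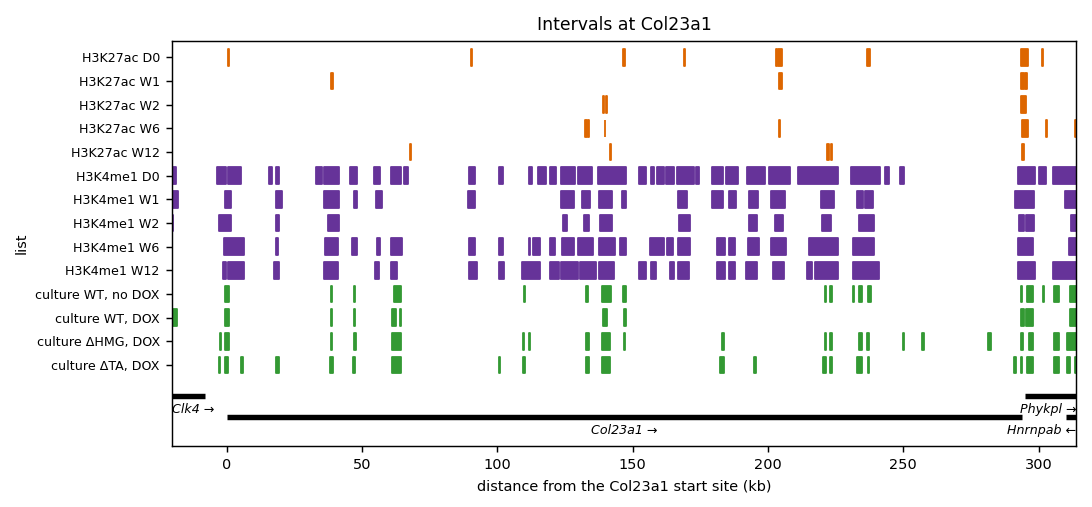
Intervals of the 14 lists (rows) across Col23a1 by distance from its start site in kb, with H3K27ac in orange, H3K4me1 of skin in purple and H3K4me1 of culture in green. Domains between 150 and 250 kb are densest at D0 and sparsest at W2, and the culture list with WT SOX9 and DOX has no interval there.

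The culture lists gave 3 comparisons, of WT, ΔHMG and ΔTA with DOX, that share 1 reference, WT cells without DOX. The ΔHMG and ΔTA cells had no list without DOX. For them, the form of SOX9, the separately transduced cells and DOX itself cannot be told apart. With WT SOX9, 11 of 43 collagens were called higher and 2 lower, with a background of 12.2% higher and 4.86% lower. With ΔHMG the counts were 2 higher and 2 lower of 41, with 4.17% and 2.75%, and with ΔTA 9 higher and 1 lower of 41, with 9.85% and 3.02%. Covered shares of the median collagen window were 5.14% without DOX, 6.67% with WT, 5.35% with ΔHMG and 7.12% with ΔTA, against 7.56%, 8.37%, 7.85% and 8.39% for all genes. An interval anywhere in the window was found for 41, 43, 41 and 41 collagens in the same order, against 84.2%, 84.6%, 85% and 85.8% of all genes, and one within 1 kb of an own start site for 27, 28, 25 and 26, against 56.8%, 57.7%, 53.4% and 54.2%. Scaled to the total covered bases of each list, the higher calls with WT were 7 and those with ΔTA 6. The share of all genes under this scaling is not given here, so these counts cannot be read as particular to collagens.

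The collagens called higher with WT SOX9 were Col4a2, Col6a2, Col6a3, Col9a1, Col9a3, Col11a1, Col14a1, Col16a1, Col19a1, Col27a1 and Col28a1. Covered bases without DOX and with WT, ΔHMG and ΔTA were 30924, 49453, 28967 and 34228 bp at Col4a2. At Col14a1 they were 14552, 28640, 13730 and 12357 bp, and at Col19a1 7776, 20542, 9480 and 6386 bp. For these genes WT stood alone above the other 3 lists. Col28a1 had 7048, 17490, 6315 and 7128 bp, Col27a1 18665, 28055, 21285 and 25505 bp and Col9a3 7563, 13736, 7328 and 6776 bp. Col9a1 had no covered base without DOX, with ΔHMG or with ΔTA and 9559 bp with WT. Col16a1 had 7668, 13422, 8977 and 11964 bp and was called higher with WT and ΔTA. Col1a1, Col1a2 and Col3a1 had 5569, 3975 and 1567 bp without DOX and 7369, 2399 and 328 bp with WT, and Col4a1 24862 and 33647 bp, none of them called.

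The lower calls with WT were Col23a1 and Col13a1, both transmembrane collagens. Col23a1 had 21119 bp without DOX, 13597 bp with WT, 24471 bp with ΔHMG and 26955 bp with ΔTA, and in the stretch from 150 to 250 kb 3633, 0, 3350 and 6077 bp. Col13a1 had 10392, 4730, 14525 and 24031 bp, so it was called lower with WT and higher with ΔTA. Col7a1 had 23332, 16686, 13508 and 15382 bp, lower in all 3 lists with DOX and called lower with both truncated forms. Col18a1 had 45590, 37943, 40668 and 47420 bp and Col15a1 19872, 17515, 20708 and 26184 bp, without a call.

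Culture and skin have separate references and can be set side by side. Of the 11 collagens called higher with WT SOX9 in culture, 4 were called higher in skin H3K4me1 at W2 (Col4a2, Col9a1, Col11a1 and Col14a1), or 36.4% of the culture calls and 44.4% of the 9 skin calls. Over all protein-coding genes, 445 genes were shared at W2, or 19.3% of 2304 culture calls and 26.8% of 1660 skin calls. At W6 and W12 4 were shared (Col9a1, Col11a1, Col14a1 and Col28a1 at both), and at W1 Col14a1 alone. The all-gene shares of the culture calls were 6.86% at W1, 13.3% at W6 and 12.9% at W12. Col23a1 was called lower in culture with WT and in skin at W1 and W2.

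The enzymes and receptors of the collagen pathway are given for context. Of 23 genes for hydroxylation, folding, processing and cross-linking, 9, 7, 9, 10 and 7 had a start-site H3K27ac peak from D0 to W12. These shares were 39.1%, 30.4%, 39.1%, 43.5% and 30.4%, against 44.5%, 43.1%, 44.1%, 48.4% and 36.2% of all protein-coding genes. They exceeded the collagen shares in every list, though barely at W1 (30.4% against 30.2%), but stayed below those of all genes in every list. The 23 genes were called 3 higher and 5 lower of 18 covered at W1, 4 and 4 of 18 at W2, 2 and 2 of 18 at W6 and 3 and 10 of 22 at W12. The backgrounds given above apply to these and the following calls, such as 37.0% lower at W12. Adamts14, a procollagen N-propeptidase, held 6411, 407, 0, 0 and 1752 bp of H3K27ac and 58600, 37800, 23289, 38000 and 34800 bp of H3K4me1, and was called lower for both marks at every time. P4ha2, a prolyl 4-hydroxylase subunit, held 3119, 304, 496, 837 and 2124 bp of H3K27ac. Bmp1, the procollagen C-proteinase, held 2373, 4939, 4683, 3694 and 1496 bp, higher at W1, W2 and W6 and lower at W12. In H3K4me1 the 23 genes were called 0 higher and 7 lower of 22 covered at W1, 3 and 2 of 23 at W2, 1 and 5 at W6 and 2 and 5 at W12. In culture they were called 2 and 2 with WT, 2 and 0 with ΔHMG and 1 and 0 with ΔTA. Of 8 receptors, 3, 2, 3, 2 and 3 had a start-site peak, among them Itgb1 and Ddr1 in every list. From W1 to W12, 1, 3, 1 and 2 receptors were called higher in H3K27ac and 1, 1, 3 and 3 lower, in H3K4me1 0, 0, 1 and 0 higher and 1, 2, 1 and 0 lower, and in culture 2 higher with ΔTA and 1 lower with WT. Ddr2, a receptor tyrosine kinase for fibrillar collagen, held 4625, 1606, 2034, 1570 and 2391 bp of H3K27ac and was called lower at every time. Itga1, the collagen-binding integrin chain, held 1676, 1723, 3960, 3330 and 2688 bp and was called higher at W2, W6 and W12.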

How the data were processed

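Per the study's methods and the submitters' processing notes, the authors split MINT-ChIP reads by barcode, trimmed them with Skewer, aligned them to GRCm38/mm10 with Bowtie2 2.2.9, discarded duplicates (Picard) and merged the replicates (SAMtools 1.9). They called H3K27ac peaks with MACS2 2.1.1 and H3K4me1 domains of skin with epic2, and the caller of the culture lists and all settings are not given in the sources used here. Per the labels, W2 replicate 1 and W12 were prepared in shared libraries and told apart by barcode. The labels also give a high and a low digest with MNase, which cuts chromatin, for each group, and no list keeps the digests apart. The culture samples are labelled for the SOX9 truncations together, without a single condition.

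The deposited H3K4me1 lists hold a p-value per domain, up to 0.0496. The deposited peak lists of H3K27ac and culture hold a score (10 times the −log10 q-value), a fold ratio over the local background and a −log10 q-value per peak. Barcode files (14) and total H3 were not used here.

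Intervals on 21 chromosomes were kept. Start sites were those of all GENCODE M21 basic transcripts (GRCm38), and covered bases merged overlapping intervals. A call needed the fold and difference stated in the text, and a gene covered in neither list was left out. Genes named in the text were those with a start-site H3K27ac peak in any list, the 5 largest rises and falls from D0 to W2 and W12 and from no DOX to WT with DOX, and Col1a1, Col1a2, Col3a1, Col4a1, Col4a2, Col7a1 and Col18a1. A few others were named after their values were seen. The intervals named were the 5 of highest score gained and lost at W2, ties broken by width. The members and all gene lists were chosen with earlier results of these data known. Functions for overlap, covered bases and calls were checked on simulated lists. Analyses used Python 3.11.15, pandas 2.3.3, NumPy, SciPy and pysam.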

Additional observations from a re-analysis of the deposited data

Results flagged for a closer look

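Some collagens were called higher than the reference in 1 list and lower in another of the same mark. These differences between single pooled lists were not tested. In H3K27ac, the windows differed by 2143 bp between W1 and W6 at Col4a3 (3160 and 1017 bp, with 1788 bp at D0), by 2411 bp between W2 and W6 at Col12a1 (3363 and 952 bp, with 2228 bp at D0), by 2441 bp between W1 and W6 at Col19a1 (2441 and 0 bp, with 997 bp at D0) and by 3240 bp between W12 and W1 at Col28a1 (3240 and 0 bp, with 780 bp at D0). In H3K4me1 of skin, W2 exceeded W6 by 35826 bp at Col4a1 (D0 32200 bp), by 44200 bp at Col4a3 (D0 29600 bp) and by 15200 bp at Col5a2, which had 8000 bp at D0 and none at W6. In culture, Col13a1 had 19301 bp more with ΔTA than with WT SOX9. W1 had the lowest and W6 the highest fitted background of the H3K27ac lists, and the part of depth in these differences was not tested.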

How the results depend on the processing

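No paired analysis was possible because each list merges its replicates, and for the same reason no replicate could be left out. Of 160 alternative counts, 121 stayed within 1.5 times the main count and 39 did not, and the cause of the latter was not tested. Apart from the last setting below, the shares of all genes are not given here. The counts show how the collagen calls moved and cannot be read as particular to collagens. Without flanks, H3K27ac lower calls were 3 at W1, 3 at W2 and 3 at W12, higher calls at W2 were 8, H3K4me1 higher calls at W6 were 8 and ΔHMG higher calls were 1. With 50 kb flanks, H3K4me1 higher calls were 0 at W1 and 4 at W12, and lower calls were 1 with ΔHMG and 0 with ΔTA. With a fold of 2, H3K27ac lower calls at W12 were 4, H3K4me1 higher calls were 0 at W1, 5 at W2 and 3 at W12, H3K4me1 lower calls were 5, 5, 8 and 5 from W1 to W12, and in culture 4 higher and 1 lower remained with WT, 0 lower with ΔHMG and 5 higher and 0 lower with ΔTA. With the stronger intervals alone, H3K27ac lower calls were 9 at W2 and 11 at W12, H3K27ac higher calls at W6 were 4, H3K4me1 higher calls at W1 were 5, lower calls were 1 with WT and 0 with ΔTA, ΔHMG higher calls were 4, and H3K27ac start sites were 3 at D0, 5 at W1 and 2 at W2. With lists shortened to the shortest, H3K4me1 calls at W1 were 5 higher and 5 lower, and WT lower calls in culture were 4. Scaled to the list totals, H3K4me1 higher calls were 4 at W1 and 8 at W6, and WT higher calls in culture were 7. Leaving out peaks at the starts of other genes, an alternative added after seeing the data, moved no H3K27ac count beyond 1.5 times. Without read depth, an absent interval cannot be told from one too shallow to be called.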
